A study of Mus musculus with 24 samples.

Results

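Whole adrenal glands of Prkar1a knockout females were set against those of Prkar1a knockout males whose testes had been removed. The members were chosen by their labels: the 4 KO female arrays and the 4 KO gonadectomised (GDX) male arrays, 8 of the 24 arrays of the series, read over the genes of the autosomes only. The question is how far removal of the testes brings the male knockout gland to the state of the female knockout gland. KO females and KO GDX males both carried floxed Prkar1a on both alleles, a Cre recombinase in the locus of Cyp11b2 (Cyp11b2tm1.1(cre)Brlt, written cre/+) and the reporter mTmG/mTmG. KO intact males, used beside them, carried the same alleles. The mice were adults of 7 months on a mixed sv129-C57Bl/6 background, and GDX males had been gonadectomised for the last 2 months. WT females were fl/+;cre/+, and WT intact males were fl/fl without Cre. WT GDX males were of 4 genotypes: array 1 was +/+ without Cre, arrays 2 and 3 were +/+ with cre/+ (array 2 with mTmG/+), and array 4 was fl/+ with cre/+. WT females and WT males therefore differ in Cre as well as in sex.

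Prkar1a encodes the type I-alpha regulatory subunit, which keeps protein kinase A switched off until cyclic AMP releases it, and in the adrenal cortex this kinase carries the signal of the pituitary hormone ACTH. Cyp11b2 is aldosterone synthase, made in the outermost cortical zone, the zona glomerulosa. Cre from its locus therefore acts in glomerulosa cells and in the inner cortical cells that descend from them, and not in the medulla, the capsule, vessels or fat. The mouse cortex is sexually dimorphic: the inner X-zone is lost in males at puberty under androgens, and female and castrated glands express genes that intact males keep low. KO females and KO GDX males differ in sex chromosomes, in ovarian hormones, in surgery and in the months that the males lived with testes before it. These cannot be told apart here.

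Values are log2 signals after robust multi-array averaging (RMA), so that a difference of 1 is a 2-fold difference of signal. Each group holds 4 arrays, called biological replicates in the labels, and their number limits the precision. Of 21957 genes with a probe set of their own, 14411 were bright enough to test (log2 over 5 in at least 4 of the 24 arrays), 13900 of them autosomal. Array medians lay between 5.20 and 5.29. Xist, the X-inactivation transcript, was 10.19 to 10.33 in the KO female arrays and 3.19 to 3.48 in the KO GDX arrays, and the Y-linked Uty, Eif2s3y and Kdm5d separated the groups the other way, so no array went against its sex label. KO GDX array 1 stood apart from the other 3 arrays of its group. On the component that carried 37.8% of the variance it lay at -2.03, against 13.28 to 14.43 for the other KO GDX arrays. KO females lay at 30.83 to 40.18 and KO males at -23.23 to -10.81. WT GDX males, at -8.79 to -1.82, and WT females, at -5.64 to -0.18, had ranges that held the value of KO GDX array 1. Its mean distance over the autosomal genes tested was 51.97 to KO females, 39.34 to KO males and 35.18 to WT GDX males. Arrays 2, 3 and 4 were nearer to KO females (40.52 to 45.36) than to KO males (45.35 to 48.81). Their distances to WT GDX males were 42.47, 40.69 and 41.8. Array 4 alone was nearer to KO females than to WT GDX males.

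Prkar1a itself (chr11:109649023-109669663, RefSeq positions on GRCm38.p6 here and below) was 7.30, 7.00, 7.35 and 6.67 in the 4 KO female arrays, against 7.99, 7.66, 7.30 and 7.45 in the KO GDX arrays. WT females lay between 8.43 and 8.54 and WT GDX males between 8.59 and 8.94, so every knockout array of either group was below every array of its matching control group. Between the knockout groups the ranges met and the difference of -0.52 ± 0.23 (log2 ± standard error, n = 4 each) did not pass the test (limma, adjusted p 0.114). Whether the probes lie in the deleted part of the gene is not known from the files.

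Gene expression differed between the knockout groups across much of the genome. Of 13900 autosomal genes 2523 (18.2%) passed an adjusted p of 0.05 (limma on all 24 arrays, Benjamini-Hochberg): 1200 (8.63%) were higher and 1323 (9.52%) lower in KO females. Differences were mostly small, with a median size of 0.39 among called genes, and 139 reached 2-fold, 72 of them higher and 67 lower. For 2798 genes every KO female array lay on one side of every KO GDX array (20.1%). Calls were spread over the autosomes, from 14.2% of the genes tested on chromosome 17 to 23.4% on chromosome 12. Without KO GDX array 1 the count was 1523. With the arrays centred on their medians 2309 genes were called, and the share higher in KO females was 59.5% in place of 47.6%. The same contrast between control groups, WT females minus WT GDX males, called 118 genes (0.849%), and 53 to 73 when any of 5 control arrays was left out (WT female arrays 1, 2 and 3 and WT GDX arrays 1 and 2). KO females minus KO intact males called 5656 (40.7%), and KO GDX minus KO intact males 2139 (15.4%), with 1323 without KO GDX array 3, 1357 without KO male array 2 and 1409 without KO male array 3. These 3 knockout comparisons share arrays, so their counts are given side by side only.

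Markers of the medulla and of fat moved with the groups. Genes of the adrenaline-producing chromaffin cells of the medulla had a mean level of 9.06, 8.58, 8.97 and 8.62 in the KO female arrays, against 9.70, 9.30, 9.38 and 9.41 in the KO GDX arrays. The groups did not overlap. Of the 12 markers tested 8 were called lower in KO females (66.7%, against 9.52% of all autosomal genes) and none higher. The 10 adipocyte markers tested averaged 7.81, 7.06, 7.29 and 7.52 in KO female arrays, against 9.05, 8.69, 9.37 and 8.79 in KO GDX arrays. Of these 10, 6 were called lower (60%, against the same 9.52%) and none higher in the fit of all arrays. In control glands the medulla markers averaged 9.33 ± 0.18 in WT females and 9.41 ± 0.33 in WT GDX males, and the adipocyte markers 9.25 ± 0.62 and 9.23 ± 0.97 (SD, n = 4 each). In whole-gland RNA fewer cells of a type and less RNA per cell cannot be told apart. A fit with each array's mean over the medulla markers as a covariate called 375 genes, with the adipocyte mean 1687, and with both 110. The medulla and adipocyte means of the KO female and KO GDX arrays do not overlap, so these covariates and the group cannot be told apart within this contrast, and the part of either tissue in the results below was not tested.

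Genes that separate the sexes in control glands placed the KO GDX glands between KO females and KO males, nearer to the females. Of the autosomal genes 1063 (7.65%) were called in WT females minus WT intact males, none of whose arrays enter the knockout contrast: 509 (3.66%) were higher and 554 (3.99%) lower in WT females. The mean of the first minus the mean of the second was 0.95, 1.12, 0.97 and 1.09 in KO female arrays, 0.54, 0.65, 0.71 and 0.68 in KO GDX arrays and -0.06, -0.34, -0.15 and 0.07 in KO male arrays. No array of one knockout group reached the range of another. WT GDX males, at 0.51 to 0.73, had a range close to that of KO GDX males. WT females lay at 1.02 to 1.09 and WT males at -0.32 to 0.10, but those arrays chose the genes.

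**Figure D1:**
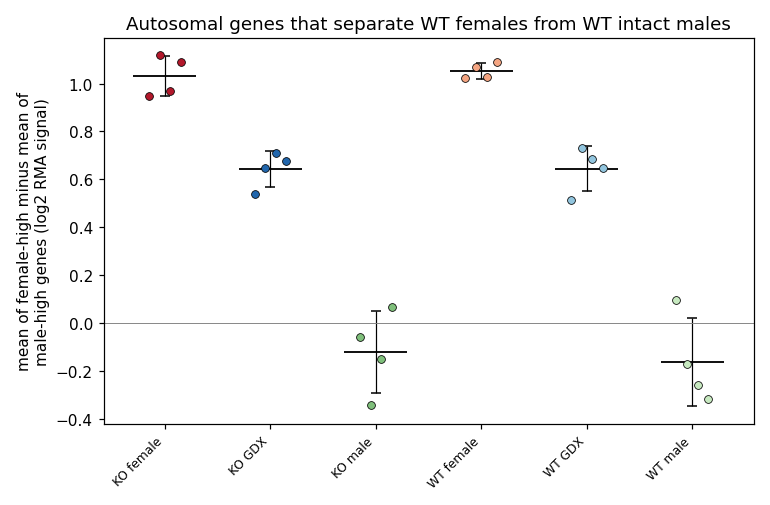
Mean log2 RMA signal of the 509 genes higher in WT females minus that of the 554 genes higher in WT males (y axis) in every array of the 6 groups (x axis); points are arrays, bars the mean and SD of 4 arrays. KO GDX arrays lie at 0.54 to 0.71, below the KO female arrays (0.95 to 1.12) and above the KO male arrays (-0.34 to 0.07).

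Gene by gene, 356 of these 1063 genes (33.5%, against 18.2% of all autosomal genes) were called between KO females and KO GDX males. The direction was that of the control sexes for 316 (29.7%) and opposite for 40, with a median difference of 0.16 in the control direction. The same list had a median of 0.42 in KO females minus KO males, with 734 genes (69.0%) called in the control direction, and 0.25 in KO GDX minus KO males, with 469 (44.1%). Over all autosomal genes these contrasts called 40.7% and 15.4% in either direction. For 786 of the 1063 genes (73.9%) KO females stood on the female side of KO GDX males.

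Of 16 genes with large sex differences in control glands, 3 were called between KO females and KO GDX males (Frzb, Elfn1 and Cyp2f2), a share of 18.8% that is near the 18.2% of all autosomal genes. These 16 were chosen after their values had been seen. Akr1c18 (chr13:4132615-4150646), the progesterone-inactivating 20-alpha-hydroxysteroid dehydrogenase that marks the X-zone, was 12.86, 12.77, 12.75 and 12.79 in KO females, against 12.62, 12.76, 12.68 and 12.75 in KO GDX males. In KO intact males it was 10.90, 6.57, 6.36 and 10.96. The ranges of KO females and KO GDX males met, near the top of the measured range (highest value of any array 13.4). Their difference was 0.09 ± 0.73 (95% interval -1.43 to 1.62, adjusted p 0.951), an interval from a fit in which all groups share 1 estimate of the spread, wide here for the KO males. Akr1d1, a steroid 5-beta-reductase, was 11.31, 11.81, 11.73 and 11.63 in KO females, against 11.35, 11.33, 11.58 and 11.67 in KO GDX males, and 4.13 to 7.99 in KO males. Its difference was 0.14 ± 0.69 (interval -1.29 to 1.57, adjusted p 0.917). With the medulla mean as a covariate both differences turned round, to -0.69 for Akr1c18 and -0.51 for Akr1d1, and neither passed the test there.

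Frzb (chr2:80411970-80447396), a secreted WNT inhibitor of the sFRP family, was 10.97, 10.81, 10.85 and 10.98 in KO females, against 8.18, 9.26, 8.55 and 7.45 in KO GDX males, and 5.13, 5.78, 5.91 and 6.45 in KO males. The 3 groups did not overlap. It was 5.81-fold higher in KO females than in KO GDX males (2.54 ± 0.31 log2, adjusted p 2.54e-05), and the control contrast was of like size, 2.01 (adjusted p 0.00128). Elfn1, a synaptic adhesion protein, was 7.63, 8.40, 7.54 and 8.38 in KO females, against 5.65, 5.86, 5.92 and 6.83 in KO GDX males, close to the 5.47 to 5.61 of KO males. Its difference was 1.92 ± 0.29 (adjusted p 0.000168) in knockout and 3.01 (adjusted p 1.52e-06) in control glands.

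Cyp2f2, a cytochrome P450 listed with the X-zone, was 9.76, 9.48, 7.58 and 10.08 in KO females, against 7.83, 6.87, 7.94 and 7.56 in KO GDX males. KO female array 3 lay among the KO GDX arrays. The difference of 1.68 ± 0.56 (adjusted p 0.0414) lost the call when any of 7 arrays was left out, with an adjusted p of 0.133 without KO female array 4, and a dimmer probe set of Cyp2f2 gave 0.50. Cd1d1, which encodes a lipid-presenting molecule, averaged 9.15 in KO females, 8.62 in KO GDX males and 5.64 in KO males. Its knockout difference was 0.53 ± 0.38 (adjusted p 0.35). Prr16 differed by 0.56 ± 0.23 (adjusted p 0.0897, but 0.0432 with only the arrays compared and 0.0475 with array weights), and Gabrg3, a GABA-A receptor subunit, by 0.95 ± 0.43 (adjusted p 0.134). None of these last 3 passed the test in the fit of all arrays, which does not show that the groups are equal.

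Among genes that are low in control females, several had adjoining ranges in KO females and KO GDX males. Acan, the cartilage proteoglycan aggrecan, was 4.05 to 4.77 in KO females and 4.27 to 4.91 in KO GDX males, under the level of 5 taken as readable, and 6.54 to 8.35 in KO males. Serpina6, the corticosteroid-binding globulin, was 5.52 to 6.17 in KO females, 5.92 to 6.49 in KO GDX males and 7.63 to 8.63 in KO males, and its difference was -0.28 (interval -0.77 to 0.21). Susd3 differed by 0.05 (interval -0.58 to 0.67). Aldh1a1, a retinaldehyde dehydrogenase, was 8.14, 7.92, 8.35 and 8.22 in KO females, against 8.98, 9.90, 8.29 and 8.14 in KO GDX males, with KO males at 10.004 to 12.24. Its difference of -0.67 ± 0.53 did not pass the test (adjusted p 0.416). Gask1b differed by -0.70 (adjusted p 0.0916) and passed the test without KO GDX array 3 (-0.91, adjusted p 0.0377). St8sia5 (-0.11), Megf10 (0.43) and Slit1 (-0.78) did not pass it.

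**Figure D2:**
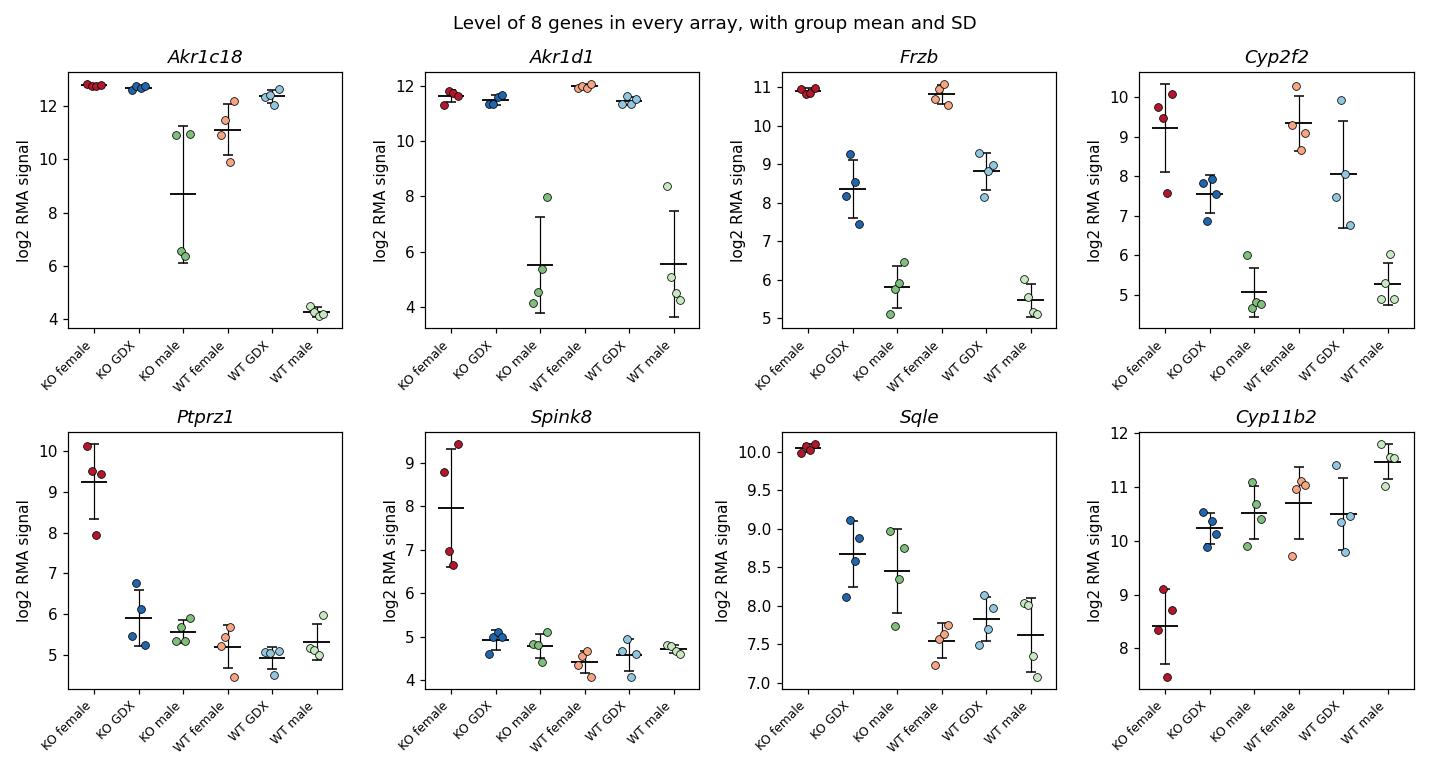
Log2 RMA signal (y axes, each with its own scale) of 8 genes in every array of the 6 groups (x axis); points are arrays, bars the mean and SD of 4 arrays. Akr1c18 and Akr1d1 are at 11.3 or above in both KO females and KO GDX males, Frzb is highest in KO females, lower in KO GDX males and lowest in KO males, and Ptprz1, Spink8, Sqle and Cyp11b2 set KO females apart from the other knockout groups.

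The X-zone list as a whole had 4 genes bright enough to test, of which 1 was called higher and 1 lower, against 8.63% higher and 9.52% lower over all autosomal genes. Their median difference was 0.08, against -0.01 over all autosomal genes. The lower one was Thrsp, a regulator of lipid synthesis that fat also expresses, at 8.56 to 8.73 in KO females and 9.52 to 10.37 in KO GDX males (-1.32 ± 0.46, adjusted p 0.0468). Its call ended when any of 7 arrays was left out (adjusted p 0.114 without KO GDX array 1), and with the adipocyte mean as a covariate its difference was 0.08. Abcb1b, a multidrug transporter, differed by 0.07 (interval -0.11 to 0.26).

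Among the 10 largest rises in KO females were Ptprz1, Spink8 and Vstm2a. Ptprz1 (chr6:22875315-23052916), a receptor-type tyrosine phosphatase best known from glia, was 10.11, 9.51, 7.94 and 9.43 in KO females, against 5.48, 6.76, 6.14 and 5.24 in KO GDX males. It was 10.2-fold higher in KO females (adjusted p 9.88e-06), with KO males at 5.34 to 5.92. Spink8 (chr9:109812203-109826628), a Kazal-type serine protease inhibitor, was 8.78, 6.97, 6.66 and 9.44 in KO females, against 4.59, 4.98, 5.10 and 4.99 in KO GDX males. The KO GDX mean of Spink8, 4.92, lies under the readable level, so the size of its difference (3.05 ± 0.39, adjusted p 4.47e-05) is uncertain. The same holds for Vstm2a, a secreted immunoglobulin-domain protein, which was 6.36 to 7.87 in KO females and 4.63 to 5.12 in KO GDX males (1.98 ± 0.21, adjusted p 5.37e-06).

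Tgm3, Chil3 and Aass were also among the 10. Tgm3, an epidermal transglutaminase, was 8.93, 8.84, 8.13 and 8.72 in KO females, against 5.25, 6.40, 7.26 and 7.35 in KO GDX males, and 4.87 to 5.20 in KO males. Chil3, a chitinase-like protein of alternatively activated macrophages, was 9.46, 8.89, 7.93 and 8.29 in KO females, against 5.13, 5.91, 7.32 and 6.87 in KO GDX males. Aass, the first enzyme of lysine breakdown, was 7.06 to 8.04 in KO females and 4.55 to 6.04 in KO GDX males. The lowest KO GDX value of Aass lies under the readable level, so the size of its difference is uncertain. KO GDX array 1 was the lowest of its group for Tgm3, Chil3 and Aass, and the groups did not overlap for any of them. Their differences were 2.09, 2.34 and 1.94, with adjusted p of 9.29e-05, 0.0022 and 7.82e-05. The last 2 of the 10 largest rises were Nxph1, a secreted ligand of neurexins (1.75, adjusted p 0.000655), and Acss3, a short-chain acyl-CoA synthetase of mitochondria (1.71, adjusted p 0.00241). Under the medulla covariate the calls of Chil3 (2.01, adjusted p 0.112), Nxph1, Acss3 and Elfn1 ended, and those of Ptprz1, Spink8, Vstm2a, Frzb, Tgm3 and Aass did not. With both covariates those of Tgm3 (1.83, adjusted p 0.0927) and Aass (1.07, adjusted p 0.202) ended as well.

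Cholesterol, made from acetyl-CoA through mevalonate and squalene or taken up from lipoproteins, is the substrate of all adrenal steroids, and the genes of its synthesis share the transcription factor SREBP2. The list of cholesterol synthesis and uptake names 24 genes, of which 19 had a probe set of their own, 2 lie on a sex chromosome, 0 were too dim, and 17 autosomal ones could be tested. All 17 were called higher in KO females, against 8.63% of all autosomal genes, and for 16 of them all KO female arrays lay above all KO GDX arrays. Their median difference was 1.06 in knockout glands and -0.11 in WT females minus WT GDX males. The list averaged 9.49, 9.74, 9.57 and 9.80 in the KO female arrays, against 8.40, 9.05, 8.54 and 8.65 in the KO GDX arrays. KO males averaged 8.46 ± 0.37, WT females 8.17 ± 0.14 and WT GDX males 8.32 ± 0.28 (SD, n = 4 each). With the medulla mean as a covariate 2 of the 17 were called, with the adipocyte mean 13, and with both means 1. Leaving out single arrays left 13 to 17 called.

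The promoters of this list are shown for the 2 genes in which a searched motif was found. RefSeq promoters on GRCm38.p6 were at hand for 13 of the 17 genes, and the 250 bases before each gene start were searched on both strands for TCACNCCAC (a sterol response element), CAAGGTCA (a site of the steroidogenic factor SF1) and TGACGTCA (the cyclic AMP response element), whose letters do not overlap in any promoter shown. Hmgcs1, whose enzyme makes the precursor of mevalonate, holds the sterol element, in capitals, starting 137 bases before the gene start (chr13:119690101-119690350, plus strand). Dhcr7, the last reductase of the pathway, holds the SF1 site, in capitals, 52 bases before its start (chr7:143822917-143823166, plus strand).
Hmgcs1: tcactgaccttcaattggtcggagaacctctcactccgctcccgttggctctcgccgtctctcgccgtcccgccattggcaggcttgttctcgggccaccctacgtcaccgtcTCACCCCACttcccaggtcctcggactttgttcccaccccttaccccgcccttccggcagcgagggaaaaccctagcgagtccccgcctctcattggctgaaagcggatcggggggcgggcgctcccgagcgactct
Dhcr7: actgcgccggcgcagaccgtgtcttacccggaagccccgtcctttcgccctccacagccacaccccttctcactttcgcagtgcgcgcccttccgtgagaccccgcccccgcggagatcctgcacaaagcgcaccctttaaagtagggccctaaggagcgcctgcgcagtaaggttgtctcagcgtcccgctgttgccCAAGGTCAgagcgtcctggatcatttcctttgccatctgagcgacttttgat
The sterol element was thus in 1 of 13 promoters (7.69%), against 1.23% of the 10798 autosomal genes with a promoter, the SF1 site in 1 of 13 against 1.21%, and the cyclic AMP element in 0 of 13 against 2.83%. Among all genes called higher in KO females the shares were 1.68%, 1.37% and 3.05%. No match says only that these letters are not in this window.

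Along the pathway the size of the difference varied. Hmgcs1 itself was 11.42, 11.59, 11.41 and 11.60 in KO females, against 10.14, 10.998, 10.31 and 10.33 in KO GDX males, 2.09-fold higher in KO females (1.06 ± 0.23, adjusted p 0.00292). Mevalonate kinase, Mvk, differed by 0.34 and the farnesyl diphosphate synthase Fdps by 1.41 (adjusted p 0.00773). Sqle (chr15:59315092-59331193), the squalene epoxidase that commits squalene to sterols, was 9.98, 10.07, 10.02 and 10.10 in KO females, against 8.11, 9.11, 8.58 and 8.88 in KO GDX males. The KO female arrays of Sqle lay within 0.12 of each other and above every other array of the series, and the difference was 1.37 ± 0.25 (adjusted p 0.000722). Cyp51, the lanosterol 14-alpha-demethylase, was 10.08 to 10.48 in KO females and 8.40 to 9.33 in KO GDX males, 2.86-fold higher in KO females (adjusted p 0.000751). Hsd17b7, a later sterol reductase, differed by 1.36 (adjusted p 0.00452). Dhcr7 differed least of the list, by 0.32 ± 0.11 (adjusted p 0.041). Of the regulators, Srebf2, which encodes SREBP2, differed by 0.38 (adjusted p 0.0173) and Insig1, which retains its precursor in the endoplasmic reticulum, by 0.90 (adjusted p 0.0462). The calls of Dhcr7, Insig1 and Srebf2 ended when any of 6, 6 and 2 arrays was left out (adjusted p 0.17 without KO GDX array 1, 0.119 without KO female array 4 and 0.0594 without KO GDX array 4). Fitted with the medulla covariate, Sqle differed by 0.96 (adjusted p 0.109), Cyp51 by 1.18 (0.0887) and Hmgcs1 by 0.60 (0.278).

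**Figure D3:**
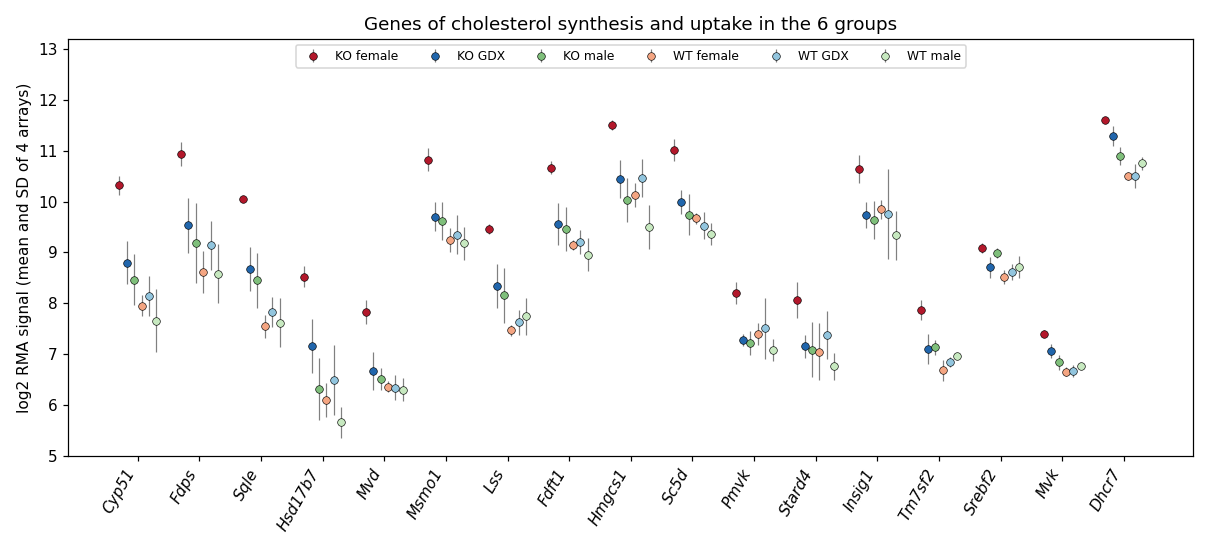
Log2 RMA signal (y axis) of the 17 cholesterol genes tested (x axis, ordered by their difference) in the 6 groups; points are means and bars SDs of 4 arrays. KO females are the highest group for each gene, while KO GDX males lie near KO males, with medians of 1.06 for KO females minus KO GDX males and 0.18 for KO GDX minus KO males.

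Of 13 genes of the steroidogenic core, which turns cholesterol into corticosterone, 3 were higher and 1 lower (30.8%, against 18.2% of all autosomal genes). Their differences lay between -0.54 and 0.49 with a median of 0.05, and the groups did not overlap for 6 (46.2%, against 20.1%). Star, which moves cholesterol into mitochondria, was 13.13 to 13.18 in KO females and 13.08 to 13.11 in KO GDX males, and Cyp11a1, the side-chain cleavage enzyme, 12.77 to 12.86 against 12.70 to 12.77. Both lie near the top of the measured range, and neither passed the test (adjusted p 0.49 and 0.217). Mrap, the accessory protein of the ACTH receptor, was 11.11, 11.12, 11.03 and 11.22 in KO females, against 10.40, 10.51, 10.80 and 10.79 in KO GDX males (0.49 ± 0.11, adjusted p 0.00482), while the receptor Mc2r differed by -0.11 (adjusted p 0.56). Fdx1, the ferredoxin that feeds electrons to mitochondrial P450 enzymes, differed by 0.41 (adjusted p 0.0148) and Scarb1, the receptor for cholesterol of high-density lipoprotein, by 0.33 (adjusted p 0.0169). Hsd11b1, which regenerates active glucocorticoid and is also made in fat, was the lower one, at -0.54 (adjusted p 0.0449). The calls of Fdx1, Scarb1 and Hsd11b1 ended without KO GDX array 2 (adjusted p 0.0561), KO GDX array 1 (0.076) and KO GDX array 3 (0.147), among others, and Hsd11b1 differed by -0.09 with the adipocyte mean as a covariate.

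Other steroid enzymes and defence genes followed. Of 4 adrenal androgen genes tested Hsd17b3, which makes testosterone from androstenedione, differed by 1.04 ± 0.29 (adjusted p 0.0151) and Cyb5a, the cytochrome b5 that aids Cyp17a1, by 0.36 (adjusted p 0.0421). Hsd17b3 was 7.57, 5.25, 6.42 and 6.17 in KO females, against 5.06, 5.82, 5.32 and 5.04 in KO GDX males, so the groups overlapped. Its call ended without KO GDX array 1 (adjusted p 0.0525) and with only the arrays compared (0.135). That of Cyb5a ended when any of 5 arrays was left out (0.157 without KO GDX array 1) and with the replicate block (0.0593). Cyp17a1 did not pass the test (0.58, adjusted p 0.527, and 1.23, adjusted p 0.119, without KO GDX array 1). Of 15 glutathione and oxidative stress genes 4 were higher and none lower, against 8.63% higher over all genes. Gsta3, a glutathione transferase with steroid isomerase activity, was 8.69, 8.99, 8.23 and 9.12 in KO females, against 7.33, 7.61, 8.01 and 8.04 in KO GDX males, with 5.72 to 6.85 in KO males (1.01 ± 0.23, adjusted p 0.00473). Glutathione reductase, Gsr, differed by 0.44 (adjusted p 0.0236), a call that ended when any of 4 arrays was left out (adjusted p 0.0653 without KO GDX array 4).

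Zona glomerulosa genes were lower in KO females. Of 10 tested 9 were called lower, against 9.52% of all genes, with a median of -0.69 against 0.20 in WT females minus WT GDX males. The list averaged 7.83, 8.11, 7.78 and 7.72 in KO female arrays, against 9.10, 8.43, 8.83 and 8.62 in KO GDX arrays, with KO males at 9.43 ± 0.37 and WT females at 9.59 ± 0.13 (SD, n = 4 each). Cyp11b2 (chr15:74850618-74856231) was 8.35, 9.10, 7.47 and 8.72 in KO females, against 10.55, 9.89, 10.37 and 10.13 in KO GDX males, 3.55-fold lower in KO females (-1.83 ± 0.36, adjusted p 0.00151). All these mice carry Cre in 1 allele of this gene. Vsnl1 (chr12:11325257-11436578), a calcium sensor of glomerulosa cells, was 5.50, 7.28, 6.11 and 6.11 in KO females, against 9.06, 7.74, 8.85 and 8.19 in KO GDX males (-2.21 ± 0.40, adjusted p 0.000748). Neither gene's groups overlapped, and KO GDX array 1 was the highest of its group for both. The potassium channel Kcnk9 (-1.16, adjusted p 0.00473) and the calcium channel Cacna1h (-1.04, adjusted p 0.000173), which set the membrane potential and calcium entry of these cells, were lower too. Hsd3b6, the glomerulosa 3-beta-hydroxysteroid dehydrogenase, was not called, at 5.57 to 7.47 in KO females and 5.49 to 6.83 in KO GDX males (0.33, adjusted p 0.758), against 7.78 to 11.67 in KO males. With the medulla mean as a covariate 1 of the 10 was called, and Cyp11b2 differed by -1.44 (adjusted p 0.118).

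WNT signalling from the capsule maintains the glomerulosa, and its genes were lower as well. Of 15 tested 10 were called lower (66.7%, against 9.52% of all autosomal genes) and none higher, with a median of -0.52 (control glands -0.01). Rspo3 (chr10:29453106-29535867), the R-spondin by which the capsule amplifies WNT signals, was 7.69, 7.62, 7.61 and 7.60 in KO females, against 8.998, 8.37, 8.34 and 8.61 in KO GDX males (-0.95 ± 0.13, adjusted p 7.63e-05), with 9.04 to 9.46 in KO males. The KO female arrays lay within 0.09 of each other and the groups did not overlap. Of the targets that feed back on the pathway, Nkd1 was 6.45 to 6.89 in KO females and 7.25 to 7.74 in KO GDX males (-0.85, adjusted p 2.35e-05), Apcdd1 differed by -0.82 (adjusted p 0.000474) and Axin2 by -0.63 (adjusted p 0.000534). The dimmer probe set of Axin2 gave -0.07. With the medulla mean as a covariate 3 of the 15 were called, and Axin2 was not (-0.46, adjusted p 0.083).

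Capsule and matrix genes showed the same direction with a wider spread. Of 12 capsule and mesenchymal progenitor genes, of which Rspo3 also stands in the WNT list, 7 were lower (58.3%, against 9.52%) and none higher, with a median of -0.54. With the medulla mean as a covariate 1 was called, with the adipocyte mean 3 and with both 0. Lum, the matrix proteoglycan lumican, was 5.28, 5.47, 5.29 and 5.21 in KO females, against 6.81, 8.18, 6.19 and 6.30 in KO GDX males (-1.56 ± 0.31, adjusted p 0.0018). Dcn, its relative decorin, was 9.97 to 10.35 in KO females and 10.55 to 11.41 in KO GDX males (-0.80, adjusted p 0.00114). Of 12 other extracellular matrix genes 4 were lower (33.3%, against 9.52% of all autosomal genes) and none higher. That count was 1 without KO female array 4 and 9 without KO GDX array 4. With the medulla mean 0 of these matrix genes were called, with the adipocyte mean 1 and with both 0. Col3a1 was 6.43, 6.64, 6.69 and 6.02 in KO females, against 7.54, 10.66, 7.11 and 6.60 in KO GDX males, and fibronectin, Fn1, was 6.25 to 6.47 in KO females, against 6.95, 10.39, 8.62 and 6.02 in KO GDX males. KO GDX array 2 was the highest of its group for both. Their calls (adjusted p 0.0395 and 0.0474) ended when any of 4 and 6 arrays was left out, with adjusted p of 0.105 for Col3a1 without KO female array 4 and 0.181 for Fn1 without KO GDX array 2.

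Of 16 protein kinase A subunits and phosphodiesterases 1 was higher and 3 lower (25.0%, against 18.2% of all autosomal genes), with a median of 0.01. Prkar1b, another type I regulatory subunit, was 6.97, 6.77, 6.77 and 6.52 in KO females, against 7.70, 7.37, 7.60 and 7.43 in KO GDX males (-0.77 ± 0.13, adjusted p 0.000564). Pde2a, a phosphodiesterase stimulated by cyclic GMP and strong in the glomerulosa, differed by -0.59 (adjusted p 0.000349), and Pde8a, a high-affinity cyclic AMP phosphodiesterase, by 0.53 (adjusted p 0.00158). Of 15 CREB and immediate early targets 1 was called (6.67%), Nr4a3, which was lower. The list mean was 8.53 in KO GDX array 1, while the other 3 KO GDX arrays (7.00 to 7.17) overlapped the KO females (6.89 to 7.11). The nuclear receptors Nr4a1, Nr4a2 and Nr4a3 were at 11.34, 9.94 and 10.01 in KO GDX array 1, while the other 3 KO GDX arrays lay between 8.50 and 9.05 for Nr4a1, 5.89 and 6.48 for Nr4a2, and 8.58 and 8.85 for Nr4a3. KO females lay between 7.83 and 8.59, 5.54 and 5.93, and 7.98 and 8.14 for these genes. Nr4a3 differed by -1.004 (adjusted p 0.00131), and Nr4a1 (-1.09, adjusted p 0.109) and Nr4a2 (-1.36, adjusted p 0.097) did not pass the test. Without KO GDX array 1 the differences were -0.69 for Nr4a3 (adjusted p 0.000632), -0.44 for Nr4a1 (0.444) and -0.41 for Nr4a2 (0.364), and without KO GDX array 3 that of Nr4a2 was -1.77 (0.0429).

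Most of the largest falls were of genes that fat expresses. Pck1 (chr2:173153073-173159274), phosphoenolpyruvate carboxykinase, which makes glycerol for fat storage in adipocytes, was 6.47, 5.39, 5.74 and 5.71 in KO females, against 7.82, 9.01, 9.61 and 8.65 in KO GDX males (-2.95 ± 0.62, adjusted p 0.00254). The adipocyte galectin Lgals12 was 5.34 to 6.66 in KO females and 8.16 to 8.84 in KO GDX males, 6.08-fold lower in KO females, and the adipokine resistin, Retn, was 8.86, 7.75, 8.32 and 7.98 in KO females, against 10.78, 10.82, 10.81 and 10.05 in KO GDX males, 5.25-fold lower (adjusted p 0.00133 and 0.000213). The groups did not overlap for these 3. Carbonic anhydrase 3, Car3 (-2.29, adjusted p 0.000192), the P450 Cyp2e1 (-2.29, adjusted p 0.00242), the cysteine dioxygenase Cdo1 (-2.14, adjusted p 0.00499) and the amino acid transporter Slc36a2 (-1.91, adjusted p 0.0168) followed. The call of Slc36a2 ended without KO GDX array 3 (adjusted p 0.0567). With the adipocyte mean as a covariate Pck1 (-1.21, adjusted p 0.0808), Cyp2e1 (-1.20, adjusted p 0.0871) and Slc36a2 (-0.26) were not called. Cdo1 kept its call there, as did Retn, Lgals12 and Car3, which are themselves in the adipocyte list. With the medulla and adipocyte means together none of these genes was called. The adipocyte hormone Adipoq was 6.18 to 7.02 in KO females and 7.73 to 8.23 in KO GDX males, and Fabp4, the fatty acid carrier, 9.77 to 10.51 against 11.30 to 11.93. Leptin, Lep, was 6.77 to 8.40 in KO females and 5.82 to 6.64 in KO GDX males without passing the test (adjusted p 0.103). It was the only adipocyte marker with a higher mean in KO females. With only the arrays compared 8 adipocyte markers were called lower and 1 higher, against 920 and 736 of the 13900 autosomal genes. Array weights also gave 8 and 1, against 1601 and 1450. Ucp1 differed most of the adipocyte list (-3.15). It is not among the largest falls named, which had to be called and without overlap of the groups. Pygm, muscle glycogen phosphorylase, was 8.37, 7.999, 7.14 and 8.40 in KO females, against 10.60, 8.96, 10.20 and 10.18 in KO GDX males (-2.01 ± 0.51, adjusted p 0.00959).

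Markers of the medulla were lower by less. Th, tyrosine hydroxylase, was 10.53, 9.75, 10.41 and 9.97 in KO females, against 11.34, 10.88, 10.997 and 11.03 in KO GDX males (-0.90 ± 0.19, adjusted p 0.00299), and Dbh, dopamine beta-hydroxylase, differed by -0.98 (adjusted p 0.000534). None of the 12 markers was under the readable level of 5 in any knockout array, though the dimmest, Cartpt, was close to it at 5.43 to 5.81. The count of 8 called (66.7%, against 9.52% called lower over all autosomal genes) was 5 without KO female array 2 and 5 without KO GDX array 1.

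Hormone-related lists differed in their share of calls, to be read against 18.2% of all autosomal genes. Of 6 oestrogen response genes 1 was higher and 3 lower (66.7%). Greb1 (chr12:16670615-16801394), an early oestrogen receptor target in breast cells, was 5.77, 6.14, 5.85 and 5.59 in KO females, against 7.74, 7.48, 7.24 and 7.17 in KO GDX males, with 7.75 to 8.53 in KO males, and it was 2.98-fold lower in KO females (adjusted p 3.38e-05). Cxcl12, a chemokine of stromal cells, was also lower (-0.97, adjusted p 0.000973), with KO female array 3 at 7.62 and the others at 6.73 to 6.86. Of 7 androgen response genes 1 was higher and 2 lower (42.9%). The prostatic acid phosphatase gene Acpp differed by 1.12 (adjusted p 0.0054) and Steap4, a metalloreductase also made in fat, by -0.94 (adjusted p 0.0196). The call of Steap4 ended when any of 4 arrays was left out (adjusted p 0.0699 without KO female array 2). Of 8 gonadal-like genes the inhibin subunits Inha (-0.58, adjusted p 0.00228) and Inhba (-0.65, adjusted p 0.0133) were lower (25.0%), with Inhba under the readable level in KO females (4.25 to 4.80) and its call lost without KO GDX array 1 (adjusted p 0.0628). Of 8 hormone receptors 1 was lower (12.5%), and of 12 glucocorticoid response genes none was called in either direction.

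**Figure D4:**
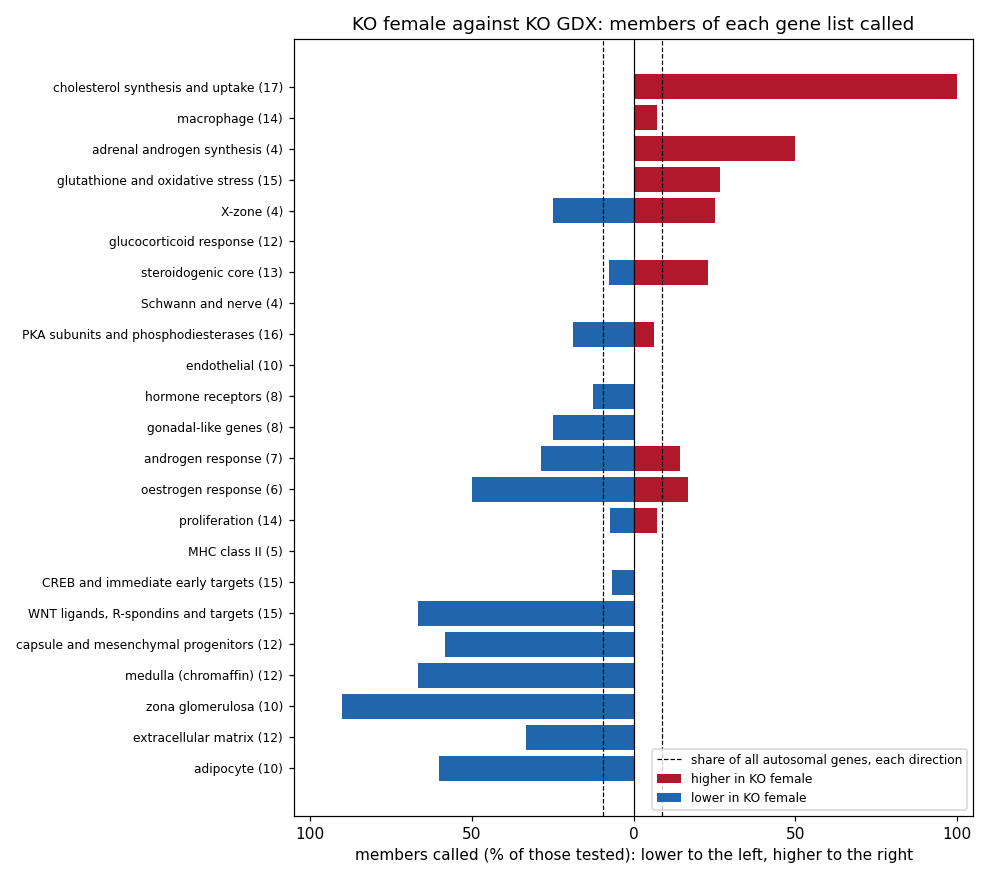
Share of the tested members of each gene list (rows, number tested in brackets) called lower (left) or higher (right) in KO females than in KO GDX males, in percent; dashed lines mark the shares over all autosomal genes, 9.52% lower and 8.63% higher. Cholesterol genes stand at 100% higher, and zona glomerulosa, WNT, medulla, adipocyte and capsule genes, with between 7 of 12 and 9 of 10 called, on the lower side.

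Of 14 macrophage genes 13 had a higher mean in KO females but 1 was called (7.14%, against 18.2% of all autosomal genes), Mrc1, the mannose receptor (0.69, adjusted p 0.0417), and that call ended when any of 6 arrays was left out (adjusted p 0.14 without KO GDX array 1). The scavenger receptor Cd163 was 6.61, 5.34, 6.95 and 6.25 in KO females, against 5.25, 6.52, 5.34 and 5.18 in KO GDX males, and was not called (adjusted p 0.0767), but it was without KO GDX array 2 (1.03, adjusted p 0.00703) and without KO female array 2 (1.03, adjusted p 0.00858). Of 3 mast cell genes 2 were called (66.7%), in opposite directions: histidine decarboxylase, Hdc, was 8.82, 8.48, 7.97 and 8.82 in KO females, against 6.88, 7.54, 7.52 and 7.41 in KO GDX males (1.18 ± 0.21, adjusted p 0.000794), while the carboxypeptidase Cpa3 was lower (-1.02, adjusted p 0.0163, and 0.0599 without KO GDX array 1). Of 14 proliferation genes 2 were called (14.3%): the mitotic kinase Ttk was higher (0.71, adjusted p 0.00374) and the replication helicase subunit Mcm2 lower (-0.36, adjusted p 0.00881). Mki67 was 6.12 to 6.63 in KO females, against 6.72, 8.49, 6.79 and 6.52 in KO GDX males, and was called without KO GDX array 4 (-0.97, adjusted p 0.041) but not with it (-0.77, adjusted p 0.0862). None of 10 endothelial genes was called, with a range of -0.18 to 0.15, and none of 5 genes of MHC class II.

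The contrast of females and gonadectomised males depended on genotype for part of the genome. The difference between the knockout and the control contrast was called for 449 autosomal genes (3.23%), 207 (1.49%) positive and 242 (1.74%) negative, and for 222 without KO GDX array 1, 250 without KO female array 4, 273 and 291 without WT GDX arrays 4 and 2, and 294 without WT female array 3. Of the 449, 405 (90.2%) were also called in the knockout contrast itself, which is part of this difference, so that overlap is partly built in. Over all autosomal genes 18.2% were called in the knockout contrast and 0.849% in the control contrast. Of the genes called in either genotype 64 were called in both and 61 of them in the same direction, which is 2.42% of the knockout list and 51.7% of the control list, and 103 of the 118 control genes had the same sign in knockout glands. The WT groups differ in genotype as given above, so this difference also holds their allele differences.

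Of the 17 cholesterol genes 12 were called positive, with a median of 1.15, and of the 10 glomerulosa genes 8 negative, with a median of -0.97. The 5 largest positive differences were those of Acpp, Spink8, Ptprz1, Fetub and Kng2. Acpp (chr9:104288240-104337722) was 7.50, 7.82, 6.57 and 7.75 in KO females, against 6.58, 6.57, 5.92 and 6.10 in KO GDX males, whereas it was 5.90 to 6.79 in WT females and 7.91 to 9.14 in WT GDX males. Its contrast was thus 1.12 in knockout and -2.18 in control glands, both called, and their difference was 3.30 ± 0.37 (adjusted p 8.63e-05). Fetub, a liver-type protease inhibitor of the fetuin family, was 10.28 to 11.17 in KO females and 8.69 to 10.53 in KO GDX males (0.97, adjusted p 0.104), against 6.12 to 7.73 in WT females and 7.92 to 9.82 in WT GDX males (-1.90, adjusted p 0.0264). Kng2, a kininogen gene also on chromosome 16, differed by 2.65 between genotypes (adjusted p 0.0495, and 0.0602 with the replicate number as a block), while its contrast of 1.41 in knockout glands did not pass the test (adjusted p 0.0628) unless KO GDX array 3 or KO female array 3 was left out (adjusted p 0.0225 and 0.0412).

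For Spink8 and Ptprz1 the KO females alone stood high: WT females were at 4.07 to 4.66 and 4.47 to 5.69, and WT GDX males at 4.07 to 4.95 and 4.52 to 5.09. Their differences between genotypes were 3.21 and 3.07, each with an adjusted p of 0.00514. The WT levels of Spink8 lie under the readable level of 5 and those of Ptprz1 reach 5.69 at most, so these sizes are uncertain. For either gene the 4 KO female arrays alone were enough to pass the filter on dim genes. The 5 largest negative differences were Pygm (-2.95), Retn (-2.88), Lgals12 (-2.71), Vsnl1 (-2.33) and Car3 (-2.21). Retn was 10.42 to 11.31 in WT females and 10.09 to 11.08 in WT GDX males, so that KO females were the low group of these 4, and Vsnl1 was 9.53 to 10.19 in WT females and 9.42 to 9.96 in WT GDX males. With the medulla and adipocyte means both as covariates 9 genes were called for the difference between genotypes.

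**Figure D5:**
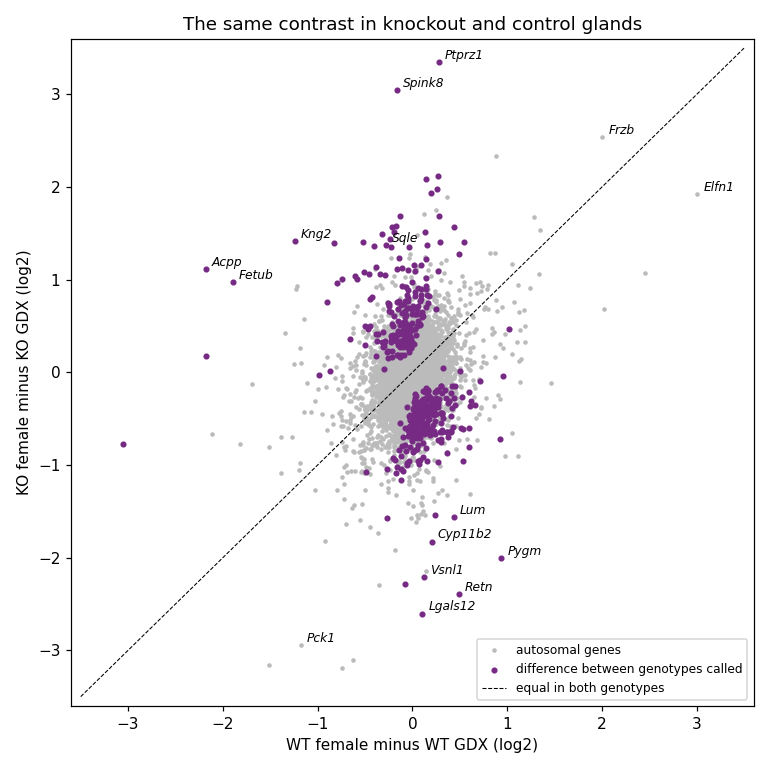
KO female minus KO GDX (y axis) against WT female minus WT GDX (x axis), both in log2, for every autosomal gene tested; purple points are the 449 genes whose difference between genotypes was called, and the dashed line marks equal values. Ptprz1 and Spink8 lie far above the line near 0 on the x axis, Acpp and Fetub in the upper left, Retn and Lgals12 below it, and Frzb close to it.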

How the data were processed

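Total RNA of whole adrenal glands (500 ng each) was hybridised to 24 one-colour arrays, 4 in each of 6 groups, per the labels. The authors deposited one table of log2 values after RMA, named in the submitters' processing notes; its software, version and build were not given in the sources used here. Of 32202 probe sets 22943 carried 1 gene symbol. The probe set with the highest mean stood for each of 21957 genes, and 14411 genes over 5 in at least 4 arrays were tested. Autosomes and positions came from RefSeq (GRCm38.p6).

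Group means of all 24 arrays were fitted with limma 3.58.1 in R 4.3.3 (lmFit and eBayes, 18 residual and 3.41 prior degrees of freedom). P-values were Benjamini-Hochberg adjusted over the 14411 genes and called at 0.05. The labels call the arrays biological replicates without naming animals, so p-values measure the spread between arrays. Same-numbered KO female and KO GDX arrays did not deviate together (correlations -0.10 to 0.18), so the fits have no block. Same-numbered KO GDX and WT GDX arrays did in all 4 pairs (correlations 0.12 to 0.24, from the data, since the labels link no arrays). The difference between genotypes was therefore also fitted with the replicate number as a block.

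Named genes are Prkar1a, Cyp11b2, the 10 called genes of largest rise and of largest fall whose arrays did not overlap, the 5 largest differences from WT each way, up to 4 members of largest change of each list, and others said to be chosen after their values were seen, as are further list members. Not every list member that this rule picks is printed. The comparison, its 29 gene lists (338 entries) and the tests were chosen with earlier results of these data known. On simulated data over 14411 genes the fit recovered 74% of genes raised by 0.5, 98% of those raised by 1 and 94% of those lowered by 1 in KO female minus KO GDX, with 10 false calls. The simulated noise was independent between genes, 50 genes were changed at each size, and no array was set apart. The real arrays differ in this, so the 10 false calls give no error rate for them. Alternatives changed the normalization, filter, probe set rule, fit, block, covariates and arrays; both covariates together were chosen after seeing the data.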

Additional observations from a re-analysis of the deposited data

Results flagged for a closer look

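The contrast of females and gonadectomised males differed between the knockout and control genotypes, by the interaction term of the limma fit (adjusted p under the threshold), for 33 of the 89 genes examined by name, against 3.23% of all autosomal genes. Some of the 89 were chosen for this difference or for the knockout contrast within it, so their count is partly fixed by the choice. Among sterol genes this difference was 1.93 for Fdps, 1.76 for Hsd17b7, 1.72 for Cyp51, 1.65 for Sqle and 1.41 for Hmgcs1. It was positive as well for Acpp (3.30), Spink8 (3.21), Ptprz1 (3.07), Fetub (2.87), Kng2 (2.65), Tgm3 (1.95), Aass (1.74), Vstm2a (1.72) and Gsta3 (1.60), and for Ttk (0.96), Fdx1 (0.80), Gsr (0.75) and Pde8a (0.64). Among glomerulosa, WNT and capsule genes it was -2.33 for Vsnl1, -2.03 for Cyp11b2, -2.00 for Lum, -0.92 for Cacna1h, -0.88 for Apcdd1, -0.78 for Nkd1, -0.77 for Rspo3 and -0.60 for Axin2. It was negative too for Pygm (-2.95), Retn (-2.88), Lgals12 (-2.71), Car3 (-2.21), Greb1 (-1.30), Prkar1b (-0.88) and Pde2a (-0.62).

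Single arrays lay far from the other 3 of their group by Dixon's criterion at the 95% level in 15 of 226 sets of 4 values, where chance gives about 1 in 20. KO female array 1 was apart for Vstm2a (7.87, next 6.55) and Thrsp (8.56, next 8.71), and KO female array 3 for Abcb1b (12.26), Scarb1 (12.54) and Cxcl12 (7.62, next 6.86). KO GDX array 1 was apart for Nr4a2 (9.94, next 6.48) and Scarb1 (12.05), and for the means of the CREB and immediate early list (8.53, next 7.17), the adrenal androgen list (6.53) and the glutathione list (8.55). KO GDX array 2 was apart for Mki67 (8.49, next 6.79) and Cd163 (6.52, next 5.34), and for the means of the proliferation (6.82) and endothelial (8.70) lists. KO GDX array 4 was apart for Retn (10.05, next 10.78).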

How the results depend on the processing

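KO females minus KO GDX males called 2523 autosomal genes, 1656 with only the arrays compared, 375 with the medulla mean as a covariate, and 110 with the medulla and adipocyte means together, when the difference between genotypes had 9. WT females minus WT GDX males called 69 with only its own arrays. Leaving out single arrays gave 1523 to 2617 in KO females minus KO GDX males, 4977 to 5624 in KO females minus KO males, 1323 to 2551 in KO GDX minus KO males, 53 to 109 in WT females minus WT GDX males, 716 to 1255 in WT females minus WT males and 222 to 630 for the difference between genotypes. With the replicate block 2382 genes were called in KO females minus KO GDX males, 2302 of them shared with the fit without it, and of the named genes the call of Cyb5a changed (adjusted p 0.0593). For the difference between genotypes it called 406 genes in place of 449, ended the call of Kng2 (0.0602) and added Cyp2e1 (0.0472) and Cdo1 (0.0477) among the named genes. Without KO GDX array 1 the calls of Col3a1, Cpa3, Cyb5a, Cyp2f2, Dhcr7, Gsr, Hsd11b1, Hsd17b3, Inhba, Insig1, Mrc1, Scarb1, Steap4 and Thrsp ended. Of 66 called named genes 48 kept the call whichever array was left out, and 48 lost it with the medulla mean as a covariate, 15 with the adipocyte mean and 58 with both; the cause was not tested. Directions that turned were of uncalled genes, except Thrsp. Susd3 turned with array weights (-0.029), and leaving out single arrays gave -0.10 to 0.12 for Susd3 and -0.46 to 0.15 for St8sia5. With the medulla mean Akr1c18 (-0.69), Akr1d1 (-0.51), Cd1d1 (-0.30), Acan (0.26), St8sia5 (0.28), Serpina6 (0.38) and Slit1 (0.19) turned, with the adipocyte mean Akr1c18 (-0.28), Akr1d1 (-0.88), Thrsp (0.081) and Acan (0.11), and with both Akr1c18 (-1.31), Akr1d1 (-1.94), Cd1d1 (-1.04), Prr16 (-0.078), Acan (0.86) and Serpina6 (0.42). The number of arrays and dim probe sets limit the precision.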
